A study of Schizosaccharomyces pombe with 24 samples.

Results

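The genes near the ends of chromosomes I and II of the fission yeast Schizosaccharomyces pombe were examined as 1 group of 154 among 6878 counted features. They were chosen by position alone, as all features named after 15 cosmid clones that cover the 4 chromosome ends, leaving out the helicase gene tlh2 and the alcohol dehydrogenase gene adh4. The left end of chromosome I held 55 of them, its right end 45, the left end of chromosome II 33 and its right end 21. Small RNA of 20 to 30 nucleotides, cut from a gel, had been sequenced from wild type (the h+ strain 975) and from ago1D, clr4D and dcr1D. In each of these 3 deletion strains of the same background the named gene was replaced by the NatMX6 drug-resistance marker. Cells grew in minimal medium with nitrogen and supplements (0 h, labelled control) and were then washed into the same medium without nitrogen for 1, 2, 4, 10 or 24 h. Each combination of strain and time had 1 library (24 libraries), so times served as the replicates of a strain comparison (6 matched times) and strains as the replicates of a time comparison (4 libraries per time). Whether a strain's 6 libraries are separate cultures is not in the labels. The p-values therefore measure the spread between these libraries alone, which may be technical.

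Subtelomeres of fission yeast carry heterochromatin and, further inward, a second kind of condensed chromatin, and many of their genes are quiet in growing cells. A large share of these genes encode permeases, enzymes of nitrogen and sugar use and stress enzymes, and several are induced when nitrogen runs out. Clr4 is the histone H3 lysine methyltransferase of heterochromatin, Dcr1 (Dicer) cuts double-stranded RNA into small RNAs and Ago1 (Argonaute) carries them. The outermost genes lie in segments that are repeated between chromosome ends, among them the helicase genes tlh1 and tlh2.

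The libraries held 117245 to 2121235 gene counts, of which the subtelomeric genes took 1133 to 7035. The counts did not bear out every label. ago1 had 0 to 8 counts in the ago1D libraries, where wild type had 11 to 35. clr4 had 9 to 31 counts in wild type but 25 to 85 in the libraries labelled clr4D, and dcr1 had 16 to 37 in wild type and 23 to 79 in the libraries labelled dcr1D. These counts are not scaled for depth. Mean gene counts per library were 347066 in wild type, 427230 in clr4D and 698633 in dcr1D. The dcr1 counts therefore show that dcr1 was not absent from dcr1D, and not that it was higher there. The libraries so labelled are meant wherever clr4D and dcr1D are named. In ago1D the subtelomeric genes were lowest in the library labelled 2 h, where the other strains were lowest at 0 h. Results are therefore also given without the 3 ago1D libraries labelled 0 to 2 h.

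Subtelomeric genes with little single-copy sequence had few counts. Of the 154 genes, 34 had no count in any library, 17 had 1 to 9 counts and 41 more had 10 or more counts but did not pass edgeR's low-count filter, which left 62 for testing. Sequence copies were read from the ASM294v3 assembly as the share of a gene's exon 25-mers found once in the genome. Of the 95 genes with at least 90% single-copy 25-mers, 0 lacked counts and 58 passed the filter, with 1 to 5416 counts over the 24 libraries. Of the 45 genes under 10%, 33 had no count, 0 passed and the highest count was 12. The 14 genes between had a median of 37.5 counts, and 4 passed. The 76 genes of the 7 outermost clones had a median of 7.3% single-copy 25-mers and 8 passed, against 100% and 54 passed among the 78 genes of the 8 inner clones. Outer position and repeated sequence thus went together, and their parts in the low counts cannot be told apart. The outer clone SPAC186, with a median of 100% single-copy 25-mers, had 20 counts in wild type. Between 67.3% and 97.4% of a library's reads were set aside as low mapping quality, the class for reads with several equal placements, so a 0 at such a gene says that no uniquely placed read fell there. The helicase gene tlh1, with 0.4% single-copy 25-mers, had 5 counts in wild type and 0 in the other strains.

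**Figure D1:**
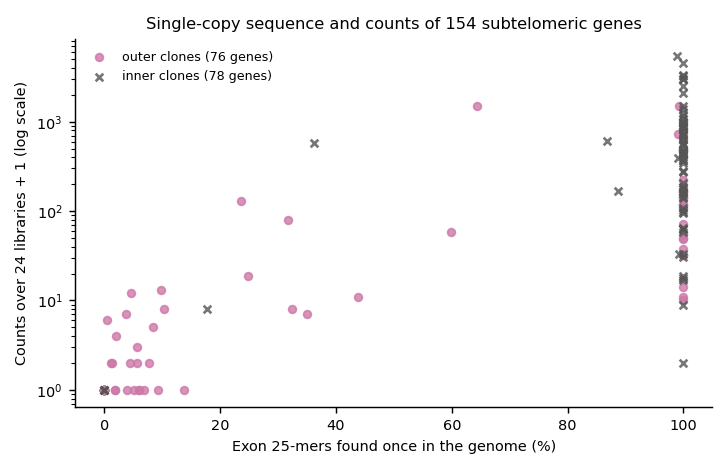
Each point is 1 of the 154 subtelomeric genes, with the share of its exon 25-mers found once in the genome on the x axis and its counts over the 24 libraries plus 1 on a log y axis. Circles are the 76 genes of outer clones and crosses the 78 genes of inner clones, and counts are near 0 where little of a gene is single-copy.

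Counts were concentrated in few genes. Over all libraries the group had 64748 counts, of which the 3 highest genes held 20.6% and the 10 highest 46.5%. Per length, in wild type, the level was highest for SPAC922.04, an uncharacterised gene chosen after its values were seen, with 705 normalised CPM per kb of exon, and the formamidase-like gene SPAC869.04 with 692. They were followed by the phosphatase gene SPAC1039.02 with 351, the phosphoglycerate mutase family gene SPAC5H10.03 with 275 and the amino acid transporter gene isp5 with 224. Normalised CPM here and below is counts per 1000000 gene counts of the library, scaled by edgeR's TMM factors.

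The share of gene counts taken by the subtelomeric genes was lowest at 0 h in wild type, clr4D and dcr1D and higher at every later time. In wild type the share was 0.259% at 0 h, 0.742% at 1 h, 0.82% at 2 h, 0.741% at 4 h, 0.916% at 10 h and 1.61% at 24 h. In clr4D it went from 0.179% at 0 h to 1.36% at 24 h and in dcr1D from 0.154% to 1.04%. These shares are not scaled by TMM factors. From 0 h to 24 h those factors rose from 0.815 to 1.51 in wild type, 0.612 to 1.60 in clr4D and 0.568 to 1.34 in dcr1D. Part of the rise in share was thus common to genes outside the group. The 154 genes are 2.24% of the features, so at no time did they take a share of counts as large as their share of features. In ago1D the shares were 0.711%, 0.614%, 0.209%, 0.771%, 1.06% and 0.971% in the labelled order of times, lowest in the library labelled 2 h.

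The ends differed in how their shares moved. The right end of chromosome I took 0.0848% in wild type at 0 h, 0.503% at 1 h and 0.911% at 24 h. Its left end stayed between 0.128% and 0.242% to 10 h and stood at 0.557% at 24 h. The left end of chromosome II ran from 0.0363% to 0.0773% with no such step. The right end of chromosome II went from 0.00968% at 0 h to 0.0989% at 24 h. At 24 h in dcr1D the left end of chromosome I, with 0.508%, was above the right end, with 0.445%, while in wild type, ago1D and clr4D the right end was above. These shares are likewise not scaled by TMM factors, are descriptions and carry no test.

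**Figure D2:**
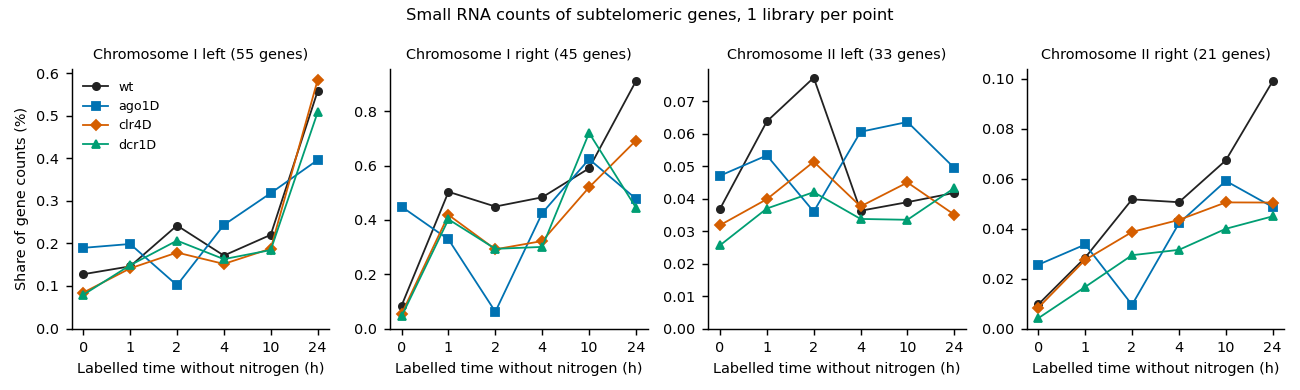
Share of gene counts (percent, not scaled by TMM factors) taken by the genes of each chromosome end against the labelled time without nitrogen, 1 point per library and 1 line per strain. Wild type, clr4D and dcr1D start low at 0 h, whereas in ago1D the low library is the one labelled 2 h, and the y scales differ between panels.

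Between 0 h and 24 h, more subtelomeric genes rose than fell, and those that rose lay mostly on chromosome I. Of the 62 genes tested, 26 were higher at 24 h, 5 were lower and 31 did not pass (edgeR quasi-likelihood test, Benjamini-Hochberg adjusted p below 0.05 over 4220 genes). Among all genes 29% passed, 15.1% higher and 13.9% lower. The median log2 fold change was 1.22 over the 62 genes and -0.01 over all genes. At the left end of chromosome I 12 of 26 were higher and 1 lower, and at its right end 12 of 24 were higher and 1 lower. At the left end of chromosome II 1 of 8 was higher and 3 were lower, with a median of -0.89, and at its right end 1 of 4 was higher and 0 lower by edgeR (DESeq2 gave the same count, and 1 of the 4 had an unadjusted p below 0.05).

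Several risen genes were neighbours among the genes tested. The longest run, at the left end of chromosome I, held 5 genes from dak2 to SPAC11D3.03c, and runs of 3 were SPAC11D3.16c to SPAC11D3.18c, SPAC869.02c (yhb1) to SPAC869.04 and SPAC922.07c (atd2) to SPAC922.05c. Within the longest run lies SPAC11D3.02c, which was not tested and was named after its values were seen. Its counts at 0 h and 24 h were 32 and 1 in wild type, 10 and 0 in ago1D, 14 and 6 in clr4D, and 38 and 3 in dcr1D. The runs carry no test. Of the 26 risen genes 10 (38.5%) were overlapped over at least 50% of their exons by a counted feature on the other strand, as were 18 (29%) of the 62 tested. Among them were SPAC11D3.14c and SPAC1039.08 (100% overlapped), SPAC5H10.05c (86.8%) and eno102 (79.2%), and SPBPB10D8.02c (80.7%) was the overlapped gene among those that fell. How strand was treated when reads were assigned is not stated, so small RNA of such a gene and of its partner cannot be told apart.

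**Figure D3:**
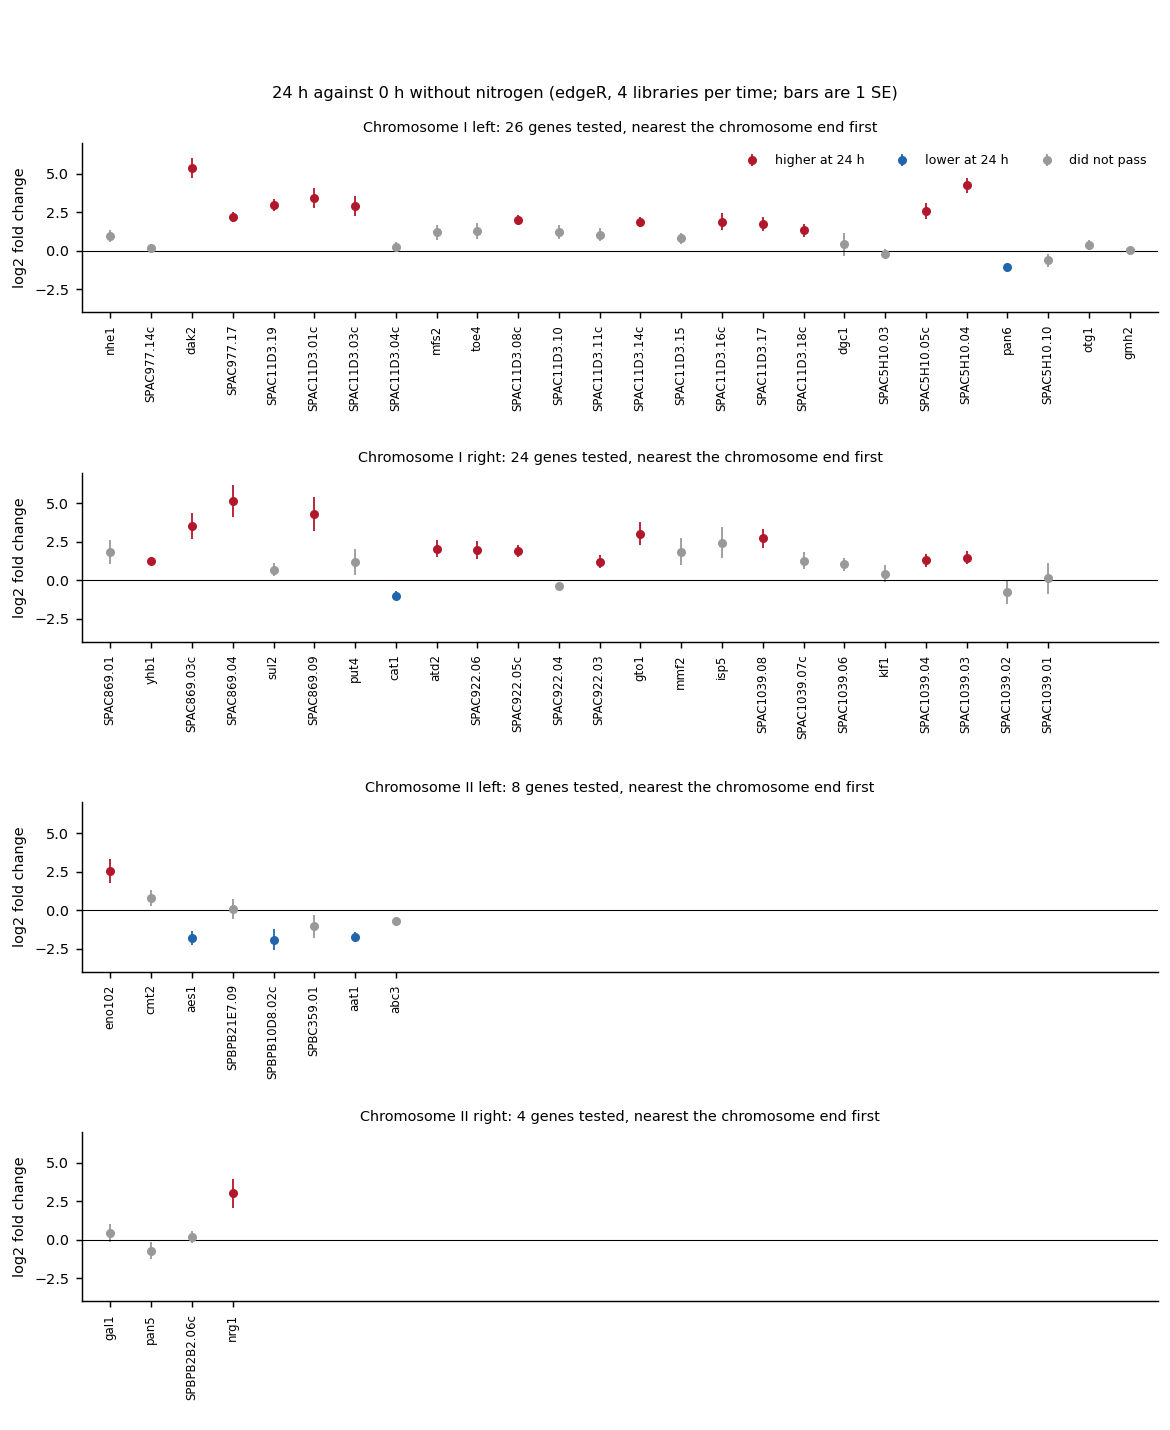
Log2 fold change of 24 h against 0 h for the 62 tested genes, in order from each chromosome end inward, with bars of 1 SE (edgeR, 4 libraries per time). Both ends of chromosome I show mostly positive values with 24 genes higher and 2 lower, and 3 of the 5 genes that fell lie at the left end of chromosome II.

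The 24 h result changed when ago1D libraries were left out and with scaling. Without the 3 ago1D libraries labelled 0 to 2 h, 74 genes were tested and 54 passed, 47 higher and 7 lower, against 42% of all genes (24% higher). The low-count filter follows the strain with fewest libraries, so it was looser here and in every other fit without these libraries. It let 4735 genes in, in place of 4220, and the effects of libraries and filter were not separated. With total-count scaling, which moved the median of all genes to 1.01, 47 of the 62 were higher and 0 lower. Among all genes 56.5% were then higher and 2.46% lower, so much of this count is common to all genes.

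Several of the subtelomeric genes with many counts serve the uptake or breakdown of nitrogen compounds. Of 17 genes with this role 15 were tested, of which 6 rose at 24 h, 2 fell and 7 did not pass, with a median of 1.22. The 62 tested subtelomeric genes had the same median, with 26 higher and 5 lower, so the list was near its group. Among all genes 15.1% were higher and 13.9% lower. Their summed level in wild type was 436 CPM at 0 h and 2279 to 4899 CPM at later times. In clr4D it was 396 CPM at 0 h and 1625 to 2542 CPM later, and in dcr1D 351 CPM at 0 h and 1563 to 2511 CPM later. In ago1D the library labelled 2 h had 328 CPM and the other 5 had 1684 to 2492 CPM. The 5 libraries of wild type after 0 h thus reached higher than those of any deletion strain, while the ranges overlapped.

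Of the 15 tested nitrogen genes, SPAC869.04, a formamidase-like gene, had the largest 24 h value. It had 3.89, 365, 482, 911, 1295 and 2131 CPM in wild type at 0, 1, 2, 4, 10 and 24 h, and 0, 85, 175, 285, 284 and 643 CPM in clr4D. In dcr1D it had 1.68, 129, 229, 258, 214 and 459 CPM, and in ago1D 98.1, 233, 0, 254, 429 and 507 CPM. Wild type stood above every deletion strain at each time from 1 h on. The log2 fold change of 24 h against 0 h was 5.18 (SE 1.04, adjusted p = 0.000806).

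Its neighbour SPAC869.03c, a urea transporter gene, was also lowest at 0 h in wild type, clr4D and dcr1D. In wild type it had 1.95 CPM at 0 h, 151 at 1 h, a peak of 823 at 10 h and 410 at 24 h. In clr4D it went from 10.4 CPM at 0 h to a peak of 322 at 4 h, and in dcr1D from 0.838 CPM to a peak of 253 at 4 h. In ago1D it had 82.6, 112, 1.85, 197, 463 and 194 CPM, with its peak at 10 h as in wild type. The wild-type peak was the highest of the 4 strains, though single libraries carry no test of a peak. The gene rose by 3.54 (SE 0.87, adjusted p = 0.00395).

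The permease genes split in direction. nrg1 (SPBPB2B2.01), an amino acid permease gene at the right end of chromosome II, rose by 3.03 (SE 0.94, adjusted p = 0.0185), from 0 CPM in wild type at 0 h to 443 CPM at 24 h. SPAC11D3.08c, another amino acid permease gene, rose by 2.00 (SE 0.34, adjusted p = 0.000158), with 29.3 to 62 CPM at 0 h and 111 to 263 CPM at 24 h in the 4 strains, which do not overlap. aat1 (SPBC359.03c), a permease gene of the left end of chromosome II, fell by 1.75 (SE 0.33, adjusted p = 0.000475), with 56.8 to 141 CPM at 0 h and 24.6 to 50.4 CPM at 24 h, again without overlap. cat1, the arginine and lysine transporter gene, fell by 1.02 (SE 0.29, adjusted p = 0.0117), but with total-count scaling its value was 0.051, so its direction rests on the scaling.

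isp5, a general amino acid transporter gene, and put4, the proline transporter gene, did not pass at 24 h with all libraries. isp5 had 5.83 CPM in wild type at 0 h and 213 to 689 CPM later, 10.4 and 199 to 486 CPM in clr4D, and 5.03 and 149 to 378 CPM in dcr1D. In ago1D isp5 had 1.85 CPM in the library labelled 2 h and 190 to 406 CPM in the other 5. Its log2 fold change was 2.46 (SE 1.01, adjusted p = 0.0711), and that of put4 was 1.20 (SE 0.84, adjusted p = 0.295). Of the 17 nitrogen genes, 11 rose at 24 h, 2 fell and 4 did not pass without the 3 ago1D libraries labelled 0 to 2 h. In that fit 24% of all genes were higher and 18% lower.

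Enzymes of nitrogen compounds were tested too. SPAC1039.08, annotated as a serine acetyltransferase gene, rose by 2.74 (SE 0.63, adjusted p = 0.00242), with 77.9 to 150 CPM at 24 h and 2.61 to 64.5 CPM at 0 h. SPAC922.03, a gene of the aminocyclopropane carboxylate deaminase family, rose by 1.22 (SE 0.40, adjusted p = 0.0248). SPBPB21E7.09, an L-asparaginase gene of which only 36.3% of 25-mers are single-copy, had a value of 0.08 (SE 0.63) and did not pass.

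Among genes of sugar and glycerol use the dihydroxyacetone kinase gene dak2, the glucosidase gene gto1 and the enolase gene eno102 rose at 24 h. Of 8 such genes 4 were tested, of which 3 rose, 0 fell by edgeR and 1 did not pass, while 15.1% of all genes were higher and 13.9% lower. dak2, which acts in glycerol breakdown, had 3.89 CPM in wild type at 0 h, 38.4 at 2 h and 36 at 24 h. At 24 h it had 333 CPM in ago1D, 297 in clr4D and 476 in dcr1D, all above wild type. At 0 h dak2 had 2.61 to 15.5 CPM in the 4 strains, below every 24 h library. It rose by 5.39 (SE 0.64, adjusted p = 4.86e-06). Beside it SPAC977.17, a gene of the channel family of aquaporins and glycerol facilitators, rose by 2.16 (SE 0.32, adjusted p = 4.86e-05), with 50.4 CPM in wild type at 24 h and 143 to 201 CPM in the 3 deletion strains.

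gto1 (SPAC1039.11c), an alpha-glucosidase gene, had its highest values at 10 h in clr4D and dcr1D. In wild type it had 19.5 to 41.4 CPM over all 6 times. In clr4D it had 24.4 to 48 CPM up to 4 h, 1373 at 10 h and 460 at 24 h. In dcr1D it had 28.5 to 67.1 CPM up to 4 h, 3150 at 10 h and 353 at 24 h. In ago1D it had 216 CPM at 10 h and 431 at 24 h, so all 3 deletion strains stood above wild type at both late times. At 10 h this 1 gene held 41% of the subtelomeric counts in dcr1D and 20.8% in clr4D, against 0.457% in wild type. Over the 4 strains it rose by 3.05 at 24 h (SE 0.74, adjusted p = 0.0035). A counted non-coding RNA on the other strand overlaps 66.8% of its exons.

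eno102, an enolase gene at the left end of chromosome II, rose by 2.52 (SE 0.78, adjusted p = 0.018), from 1.95 to 5.16 CPM at 0 h to 9.79 to 41.7 CPM at 24 h. These values rest on few counts, 1, 2, 1 and 5 at 0 h and 3, 6, 3 and 9 at 24 h in wild type, ago1D, clr4D and dcr1D. In wild type eno102 was highest at 2 h, with 24 counts (102 CPM). The galactose genes gal7, gal10 and gal1 lie together at the right end of chromosome II, and of these only gal1, the galactokinase gene, passed the filter, with a 24 h value of 0.45 (SE 0.60, adjusted p = 0.601). gal1 and gal7 were named after their values were seen. gal10, the epimerase gene, had 18 counts in wild type, 64 in ago1D, 33 in clr4D and 49 in dcr1D. Fitted without the filter it was higher in ago1D by 1.51 (SE 0.41, adjusted p = 0.0342), in a fit where 3.33% of all genes passed (2.56% higher). A gene on the other strand overlaps 93.7% of gal10.

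**Figure D4:**
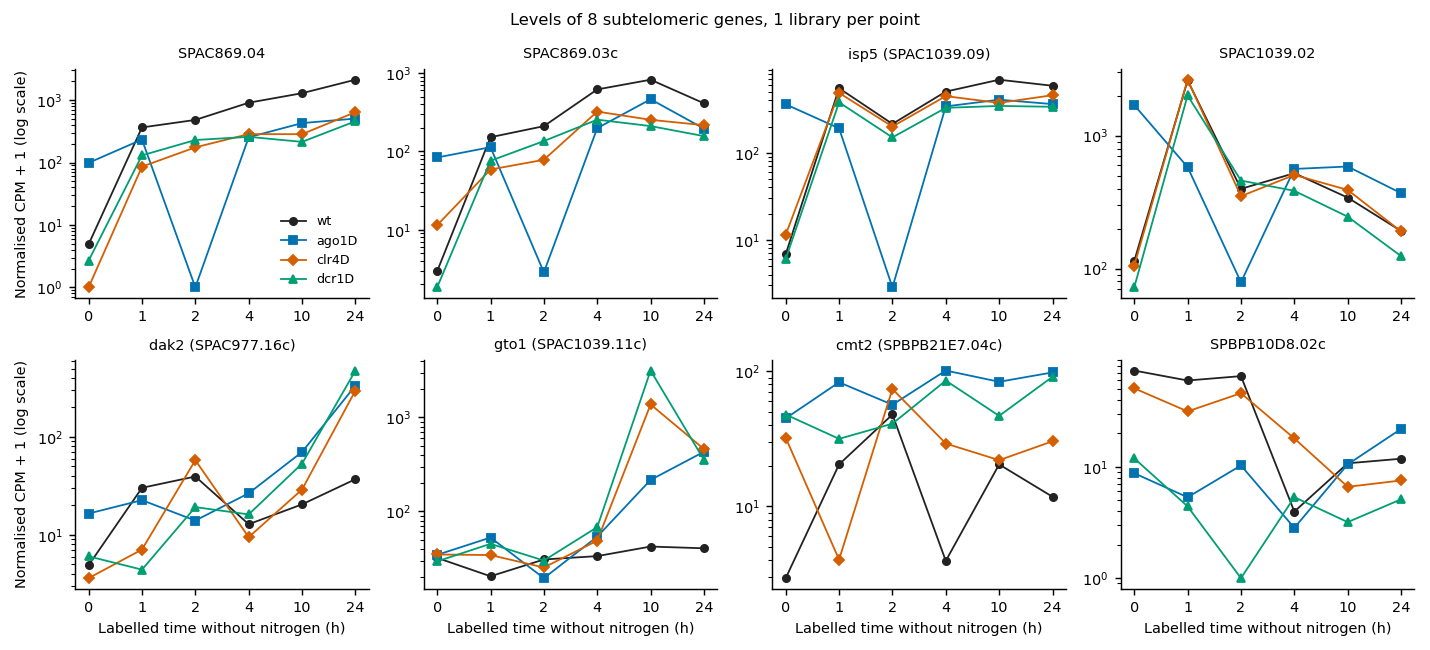
Normalised CPM plus 1 on a log scale against the labelled time without nitrogen for 8 subtelomeric genes, 1 point per library and 1 line per strain. SPAC869.04, SPAC869.03c and isp5 are lowest at 0 h in wild type, clr4D and dcr1D and in the library labelled 2 h in ago1D, SPAC1039.02 peaks at 1 h, and gto1 reaches 3150 CPM in dcr1D and 1373 in clr4D at 10 h while wild type stays at 41.4 or below.

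SPAC1039.02, a phosphatase gene and the member with most counts, had a peak at 1 h in place of a rise to 24 h. It had 113 CPM at 0 h and 2599 at 1 h in wild type, 104 and 2633 in clr4D, and 71.2 and 2003 in dcr1D, and at most 520 CPM at any later time in these strains. In ago1D its highest library was the one labelled 0 h, with 1696 CPM. The 24 h value of -0.76 (SE 0.76, adjusted p = 0.472) did not pass. Over the 62 tested genes, 21 in wild type were highest at 24 h, 14 at 1 h and 12 at 2 h, and 39 were lowest at 0 h. In clr4D 20 were highest at 24 h and 19 at 1 h, and in dcr1D 19 and 21. Such times were not counted over all genes, so whether they are particular to the group was not tested.

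Redox and detoxification genes were also among those that rose. SPAC5H10.04, an NADPH dehydrogenase gene, had 10.4 to 25.8 CPM at 0 h and 155, 368, 460 and 406 CPM at 24 h in wild type, ago1D, clr4D and dcr1D, and rose by 4.24 (SE 0.50, adjusted p = 4.86e-06). SPAC5H10.05c, an oxidoreductase gene on the other strand whose exons cover 97.6% of SPAC5H10.04, rose by 2.60 (SE 0.52, adjusted p = 0.000786) over the 4 strains. In wild type at 24 h it had 0 counts, against 208 to 346 CPM in the deletion strains, so the wild type did not share this rise. The aldehyde dehydrogenase gene atd2 rose by 2.07 (SE 0.52, adjusted p = 0.00497) and the nitric oxide dioxygenase gene yhb1 by 1.26 (SE 0.26, adjusted p = 0.00115).

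Other genes that rose at 24 h had few counts or no known role. SPAC869.09 and SPAC11D3.01c, both of the Con-6 family, named after a conidiation protein of Neurospora, rose by 4.30 (SE 1.11, adjusted p = 0.00559) and 3.42 (SE 0.67, adjusted p = 0.000656), with at most 41 and 135 CPM in any library. Both passed the low-count filter partly through 24 h libraries, the higher group here. At 24 h SPAC869.09 had 6, 0, 6 and 10 counts in wild type, ago1D, clr4D and dcr1D. Both calls were also made without the filter. SPAC11D3.17, a zinc-finger transcription factor gene, rose by 1.71 (SE 0.46, adjusted p = 0.00733), while the transcription factor gene toe4 had a value of 1.30 (SE 0.51, adjusted p = 0.0601). The remaining falls were in SPBPB10D8.02c, an arylsulfatase gene (-1.92, SE 0.66, adjusted p = 0.0312), aes1, a gene of the phenazine biosynthesis family (-1.80, SE 0.45, adjusted p = 0.00479), and pan6, the pantoate ligase gene of pantothenate synthesis (-1.10, SE 0.32, adjusted p = 0.0127). With total-count scaling 0 of these 5 falls passed, while 2.46% of all genes were lower. SPBPB10D8.02c passed the filter partly through the 0 h libraries of wild type and clr4D (37 and 19 counts), and its fall was also called without the filter.

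The comparison of ago1D with wild type at matched times asks which small RNAs change without Argonaute. Of the 62 genes 4 were higher in ago1D, 2 were lower and 56 did not pass, 9.68% in all. Among all genes 4.31% passed, 3.06% higher and 1.26% lower, and the median was -0.16 over the 62 and -0.02 over all genes. The gene with the largest rise was cmt2 (SPBPB21E7.04c), a catechol O-methyltransferase gene at the left end of chromosome II. It had 1.95, 19.5, 46.9, 2.96, 19.5 and 10.8 CPM in wild type and 43.9, 82.1, 55.6, 100.2, 82.7 and 97.2 CPM in ago1D, higher at 6 of 6 times. It rose by 2.35 (SE 0.48, adjusted p = 0.00421).

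SPAC11D3.14c, an oxoprolinase gene of glutathione breakdown, had 29.2 to 56 CPM in wild type and 60.5 to 174 in ago1D, which do not overlap, and rose by 1.03 (SE 0.27, adjusted p = 0.0292). SPAC977.14c, an aldo-keto reductase gene, rose by 0.91 (SE 0.23, adjusted p = 0.0206) and yhb1 by 0.79 (SE 0.21, adjusted p = 0.0357), both higher in ago1D at 6 of 6 times. mfs2, a membrane transporter gene, was high in wild type at 0 h and 24 h (327 and 871 CPM) and had 34.1 to 73 CPM between. In ago1D it had 12.2 to 74.2 CPM throughout, with 41.7 CPM at 24 h against 369 in clr4D and 644 in dcr1D, and it fell by 1.91 (SE 0.46, adjusted p = 0.0186). SPBPB10D8.02c fell by 1.91 (SE 0.51, adjusted p = 0.031). It passed the low-count filter partly through wild type at 0, 1 and 2 h, where it was high. The call was also made without the filter.

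Without the 3 ago1D libraries labelled 0 to 2 h, 12 of 74 genes differed, 6 higher and 6 lower, against 7.03% of all genes (4.54% higher, 2.49% lower). SPBPB10D8.02c then had a value of -0.45 and did not pass, and yhb1 had 0.69 and did not pass. cmt2 (2.65), mfs2 (-2.63), SPAC977.14c (1.40) and SPAC11D3.14c (1.07) still passed. SPAC977.15, a dienelactone hydrolase family gene below the filter of the full fit, had 68 counts in ago1D against 2 in wild type, a ratio of 26 (95% exact interval 6.94 to 219), and 14 (3.58 to 120.5) without the 10 h libraries. In clr4D it had 39 counts and in dcr1D 59. It was named after its values were seen.

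Dicer was compared in the same way. In dcr1D 1 of the 62 genes was higher, 2 were lower and 59 did not pass, 4.84% against 2.54% of all genes (1.87% higher, 0.664% lower), and the median was -0.40 against -0.01. cmt2 rose by 1.92 (SE 0.48, adjusted p = 0.0324), with 30.7 to 90.2 CPM in dcr1D. SPBPB10D8.02c had 72, 58.4, 64, 2.96, 9.73 and 10.8 CPM in wild type and 10.9, 3.41, 0, 4.33, 2.18 and 4.1 CPM in dcr1D. Wild type was thus well above dcr1D up to 2 h, and at 4 h the order was the other way. The gene fell by 2.70 (SE 0.52, adjusted p = 0.00435). It passed the low-count filter partly through wild type at 0, 1 and 2 h (37, 12 and 15 counts), the higher group here. All 41 calls of single genes with all libraries, this fall among them, were also made without the filter. SPBPB2B2.06c, a phosphatase gene at the right end of chromosome II, fell by 1.16 (SE 0.28, adjusted p = 0.0277) and was lower in dcr1D at 6 of 6 times. ago1D, clr4D and dcr1D were all compared with the same wild-type libraries, so a high or low wild-type library enters each comparison.

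Without the 3 ago1D libraries labelled 0 to 2 h the dcr1D count was 23 of 74, 4 higher and 19 lower, against 9.84% of all genes (6.63% higher, 3.21% lower). At the right end of chromosome I 1 gene was then higher and 10 were lower. Among the nitrogen genes 9 of 17 were lower and 0 higher, including SPAC869.04 (-1.84, SE 0.20), SPAC869.03c (-1.29, SE 0.24), nrg1 (-1.03, SE 0.19), put4 (-0.79, SE 0.18) and isp5 (-0.68, SE 0.15). With all 24 libraries 0 of these 15 tested genes passed by edgeR in dcr1D, 5 had an unadjusted p below 0.05 and their median was -0.71. With the 12 wild-type and dcr1D libraries alone, 12 of 50 genes passed, 1 higher and 11 lower, against 4.53% of all genes.

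The libraries labelled clr4D were the last compared with wild type. Of the 62 tested genes 0 differed in clr4D by edgeR, against 0.9% of all genes (0.829% higher, 0.0711% lower). There were 7 at an unadjusted p below 0.05, and DESeq2 called 1 gene, SPAC869.01, an amidase gene (-2.43). The median was -0.31 against -0.02 over all genes. Without the 3 ago1D libraries labelled 0 to 2 h, 7 of 74 passed, against 3.15% of all genes (2.56% higher, 0.591% lower). SPAC869.04 (-1.81, SE 0.20), SPAC869.03c (-1.16, SE 0.24), SPAC869.01 (-2.48, SE 0.48), SPAC922.04 (-0.72, SE 0.15) and nrg1 (-0.72, SE 0.19) were lower, and SPAC186.06 and SPAC977.15 were higher. These last genes had 0 and 2 counts in wild type and entered the fit through the strains where they had counts, so their fitted values are not given and their pooled counts are given instead. SPAC869.01 was named after its values were seen. It passed the filter through ago1D and through wild type, the higher group here, with 12, 18 and 18 wild-type counts at 1, 4 and 10 h. In clr4D it had at most 4 counts in any library.

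By end and by outer or inner clones, clr4D held its largest share of counts at the outer right end of chromosome I. The genes there were all below the filter. The 17 genes of clones SPAC750 and SPAC186 there had 261 counts in clr4D, 20 in wild type, 34 in ago1D and 15 in dcr1D, so clr4D held 79.1% of them. At the other ends and in the inner clones clr4D held 17.4% to 26% of the counts. Of the 13 of these 17 genes with any count, 11 had more counts in clr4D than in the other 3 strains together. Most genes of clone SPAC186 are single-copy, with a median of 100% unique 25-mers.

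pdc102, a pyruvate decarboxylase gene, had 0, 0, 1, 2, 9 and 42 counts in clr4D in order of time. It had 0 counts over the 6 wild-type libraries, 1 in ago1D and 0 in dcr1D. It was therefore at least 15.3-fold higher in clr4D than in wild type, with the floor set at 3 counts over the 6 libraries, and at least 3.36-fold higher without the 24 h libraries. SPAC186.06, an isomerase gene, had 3, 16, 9, 2, 8 and 9 counts in clr4D, 0 in wild type, 2 in ago1D and 0 in dcr1D. It was at least 13.3-fold higher than in wild type, and at least 10.6-fold without 24 h, so counts came from all 6 times.

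gdt1 (SPAC186.05c), a gene of a membrane protein family of ion transport, had 3, 7, 5, 6, 10 and 11 counts in clr4D, 1 in wild type, 5 in ago1D and 0 in dcr1D. Its ratio to wild type was 35.7 (95% exact interval 6.06 to 1441). SPAC186.04c, of unknown function, had 37 counts in clr4D, 25 of them at 24 h, and 0 in each other strain, so it was at least 10.5-fold higher than in wild type, and at least 3.36-fold without the 24 h libraries. SPAC750.01, an aldo-keto reductase family gene, had 40 counts in clr4D, 0 in wild type, 10 in ago1D and 7 in dcr1D. The clr4D counts were thus above those of every other strain for all 5 genes, which were named after their values were seen.

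Summed over clone SPAC186, clr4D had 211 counts and wild type 20, a ratio of 8.96 (95% exact interval 5.65 to 15), or 6.66 (3.73 to 12.9) without the 24 h libraries, which held 108 of the 211. Against dcr1D, with 8 counts, the ratio was 38.2 (19.1 to 89.7). Intervals and floors cover counting error only. SPAC186.02c and pfl9, the innermost genes of this clone, did not share the excess, with 2 and 6 counts in clr4D and 9 each in wild type. Fitted without the low-count filter, 7 of 120 subtelomeric genes with counts differed in clr4D, against 1.35% of all genes (1.25% higher). The higher ones were SPAC186.04c, gdt1, SPAC186.06, pdc102, SPAC750.01 and SPAC977.15, each with 0 to 2 counts in wild type, and SPAC869.01 was lower. Those higher genes entered this fit through the strains where they had counts, for clones SPAC186 and SPAC750 mostly clr4D. Their calls therefore restate the pooled counts and add no separate evidence. In the same libraries tlh2, at the right end of chromosome II and left out of the group, had 97 counts in clr4D, 26 in wild type, 0 in ago1D and 1 in dcr1D.

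**Figure D5:**
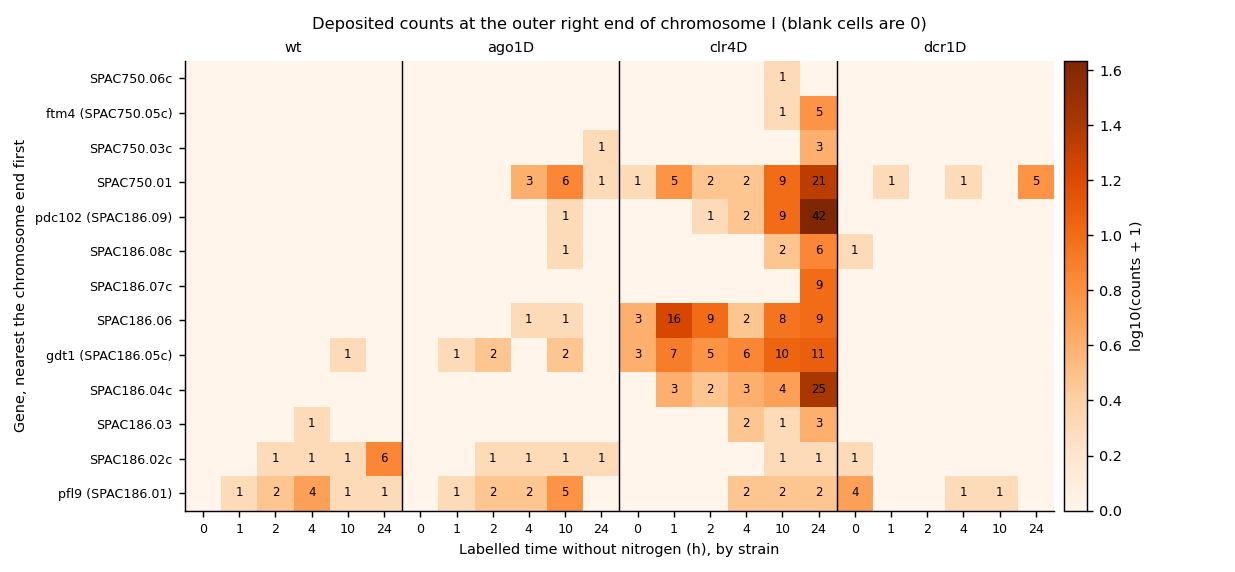
Deposited counts of the 13 genes with counts in clones SPAC750 and SPAC186, in order from the chromosome end, in each of the 24 libraries ordered by strain and labelled time. Colour is log10 of counts plus 1 and blank cells are 0. The cells of clr4D hold 261 of the 330 counts.

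Between clr4D and dcr1D, 0 of the 62 tested genes differed by edgeR (9 at an unadjusted p below 0.05, 0 by DESeq2), against 0.142% of all genes (0.0948% higher, 0.0474% lower). With those 3 ago1D libraries left out, 3 of 74 were higher in clr4D and 0 lower, against 0.781% of all genes (0.275% higher, 0.507% lower). They were SPAC186.06, which had 0 counts in dcr1D and entered the fit through its clr4D counts, SPBPB10D8.02c (2.28, SE 0.48) and SPBPB2B2.06c (0.86, SE 0.19). Without the filter gdt1, SPAC186.06 and pdc102 were higher in clr4D and 0 lower, against 0.152% of all genes. These genes had 0 counts in dcr1D and entered that fit mostly through clr4D, so the calls restate their counts.

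Late times (10 and 24 h) were set against the 4 earlier ones within each strain. In wild type 1 of the 62 genes was higher late and 0 lower by edgeR, against 0.118% of all genes (0.0948% higher, 0.0237% lower), and 9 had an unadjusted p below 0.05. It was SPAC11D3.19, of unknown function, with 46.2 and 93.6 CPM late and 4.87 to 21.3 CPM early, and it rose by 2.80 (SE 0.53, adjusted p = 0.0298). DESeq2 called 0. With the 3 ago1D libraries labelled 0 to 2 h left out, edgeR called 0 of 74, against 0.0422% of all genes (0.0211% higher, 0.0211% lower). The interaction, which tests whether the late change departs from that of wild type, passed for 0 genes by edgeR in each deletion strain, against 0% of all genes. There were 7 genes at an unadjusted p below 0.05 for ago1D, 5 for clr4D and 6 for dcr1D. The share of all genes at that level is not given, so these counts are not results about the group. The smallest p in clr4D and in dcr1D was that of gto1, with 4.20 (SE 0.95, adjusted p = 0.296) and 4.88 (SE 0.95, adjusted p = 0.0851). DESeq2 called gto1 alone among the subtelomeric genes in both (adjusted p = 0.0435 and 0.000588), against 0.0474% and 0.284% of all genes, and 0 in ago1D.

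mug14, an adducin gene at the left end of chromosome II that did not pass the filter, was also high at 10 h in clr4D. It had 86 of its 103 clr4D counts there, 15 in dcr1D at 10 h and 7 over the 6 wild-type libraries. Its ratio of clr4D to wild type was 12.5 (95% exact interval 5.85 to 31.8), and 2.35 (0.93 to 6.71) without the 10 h libraries. SPAC212.04c, at the outer left end of chromosome I, had 42 counts in dcr1D and 12 in clr4D at 10 h and at most 3 in any other library. Both were named after their values were seen.

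Genes for proteins of telomeres and subtelomeric chromatin, 21 in all and none of them in the group, were read in the same libraries. Of the 20 tested 3 rose at 24 h and 0 fell by edgeR, with a median of 0.24 against -0.01 over all genes. Higher at 24 h were thus 15% of these genes and 15.1% of all genes, so the share was near the background. The 3 were poz1 (2.18, SE 0.42, adjusted p = 0.00057) and pot1 (1.33, SE 0.30, adjusted p = 0.00199), of the shelterin complex that covers telomere ends, and set2 (0.89, SE 0.23, adjusted p = 0.00559), the histone H3 lysine methyltransferase of transcribed genes. Between each deletion strain and wild type 0 of the 20 passed by edgeR, with 1, 3 and 2 at an unadjusted p below 0.05 in ago1D, clr4D and dcr1D. epe1, which counteracts heterochromatin, had a 24 h value of 0.68 (SE 0.31, adjusted p = 0.107).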

How the data were processed

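Small RNA was sequenced from 24 libraries. The deposited files hold raw counts per annotated transcript, made by the authors: adapters were removed with cutadapt and reads were aligned with Bowtie2 2.1.0 to ASM294v2 and counted with HTSeq 0.6.1, per the submitters' processing notes. The 5 summary lines of HTSeq were left out. Names, order and overlaps of features came from the ASM294v3 annotation, which matched 6705 of 6878 features, all 154 subtelomeric genes among them. Because the builds differ, no coordinates or sequences are given.

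Counts were tested with edgeR 4.0.16 (R 4.3.3, limma 3.58.1): TMM scaling, filterByExpr by strain with a minimum count of 10, the quasi-likelihood F-test with terms for strain and time, and Benjamini-Hochberg adjustment over 4220 genes with a threshold of 0.05. A second fit compared 10 and 24 h with earlier times within and between strains. Wherever a number of genes at an unadjusted p below 0.05 is given, the share of all genes at that level is not. Such numbers are descriptions and not results about the group. DESeq2 1.42.0, other scalings, no filter and left-out libraries were alternatives. On simulated counts for ago1D against wild type, 37% of 2-fold and 91% of 4-fold changes were recovered (100 genes each, 4220 genes tested). For the late change in clr4D against wild type, 11.9% of 4-fold, 73.1% of 16-fold and 93.9% of 64-fold changes were recovered (4220 genes tested). Ratios of pooled counts, with exact 95% intervals or a floor of 3 counts over the group, were used for genes below the filter. Gene counts per library ran from 117245 to 2121235.

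The genes named are those that passed a test (up to 10 per direction by adjusted p), the 3 with most counts at each end, up to 4 of each role list by counts and, of the telomere list, the 4 with the smallest adjusted p. Others are named as chosen after their values were seen. The genes and lists were chosen with earlier results of these data known.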

Additional observations from a re-analysis of the deposited data

Results flagged for a closer look

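In 6 of 44 groups of matched differences in log2(CPM + 1) a single library stood apart from the others of its group by Dixon's 95% criterion, where chance gives about 1 in 20. For yhb1, ago1D minus wild type was 1.87 at 0 h and 0.36 to 0.75 at the other times. For gto1, 24 h minus 0 h was 0.34 in wild type, against 3.58 to 3.72 in the 3 deletion strains. For the oxidoreductase gene SPAC5H10.05c the same difference was -4.48 in wild type, which had 0 counts at 24 h, while the 3 deletion strains were higher at 24 h. In ago1D, 24 h minus 0 h was -0.42 for SPAC1039.03 (an esterase gene), -2.62 for SPAC869.09 and 0.51 for atd2, each below the other 3 strains, and the library labelled ago1D 0 h enters all 3 values. Whether that library's time label plays a part was not tested.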

How the results depend on the processing

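Numbers of subtelomeric genes called depended on the libraries and the filter. For ago1D against wild type 6 were called in the fit of all libraries, 12 without the 3 ago1D libraries labelled 0 to 2 h, 1 without a time term and 0 with the 12 libraries of the comparison alone. Among all genes 4.31% passed with all libraries, 7.03% without those ago1D libraries and 0.782% with 12 libraries alone. For clr4D against wild type 0 were called, and 1 by DESeq2, 7 without the low-count filter, 7 without those ago1D libraries and 2 with 12 libraries alone. The shares of all genes in these fits, in that order, were 0.9%, 1.09%, 1.35%, 3.15% and 0.519%. For dcr1D the 3 became 1 with total-count scaling, 23 without those ago1D libraries, 1 without the 10 h libraries of clr4D and dcr1D, 0 without a time term and 12 with 12 libraries alone. Of all genes 2.54% passed with all libraries, 1.28% with total-count scaling, 9.84% without those ago1D libraries and 4.53% with 12 libraries alone. For clr4D against dcr1D the 0 became 3 without the filter, 3 without those ago1D libraries and 5 with 12 libraries alone. Here 0.142% of all genes passed with all libraries, then 0.152%, 0.781% and 4% in the order given. For 24 h against 0 h the 31 became 47 with total-count scaling, which moved the median of all genes to 1.01, and 54 without those ago1D libraries. Among all genes 58.9% and 42% passed in these 2 fits. The log2 fold change of cat1 turned to 0.051 with total-count scaling. The late change in wild type went from 1 to 0 by DESeq2 and to 0 without those ago1D libraries. Its departure in clr4D went from 0 to 1 by DESeq2 and 2 without the 10 h libraries of clr4D and dcr1D, and in dcr1D from 0 to 1 by DESeq2. No share of all genes stands beside the fits without a time term or without 10 h libraries. The causes were not tested.

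Leaving out 1 time or strain gave 2 to 13 calls for ago1D, 0 to 2 for clr4D, 1 to 8 for dcr1D, 0 to 0 for clr4D against dcr1D and 13 to 42 for 24 h (13 without clr4D, 42 without ago1D). Without ago1D 39.6% of all genes passed at 24 h. Shares of all genes are not given for the other left-out times and strains, so these ranges are not results about the group. The late change gave 0 to 1 in wild type, 0 to 1 for dcr1D and 0 for ago1D and clr4D. The mean share of gene counts moved between 0.696% and 0.966% for wild type. For ago1D it stayed within 0.655% and 0.826%, for clr4D within 0.545% and 0.781%, and for dcr1D within 0.567% and 0.745%. Of 433 values of single genes under alternatives, 336 kept direction and call, 96 kept direction but not the call and 1 reversed. Matching by time is part of the fit, and the fit without it is the one with no time term. Leaving 24 h or 10 h libraries out of the pooled count ratios was chosen after seeing the data. Of the 45 genes under 10% single-copy 25-mers 33 had no count and 0 passed the low-count filter.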
